A study of Mus musculus with 8 samples.

Results

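The Iroquois homeobox genes of the mouse lie in a pair of clusters of 3 genes each, IrxA (Irx1, Irx2 and Irx4) on chromosome 13 and IrxB (Irx3, Irx5 and Irx6) on chromosome 8, and the distribution of H3K27me3 along both was examined in the passage from tumorigenic astrocytes to glioma. Members were the H3K27me3 peaks that overlapped chr13:72085000-73415000 (IrxA window, 1330000 bp) or chr8:94310000-95230000 (IrxB window, 920000 bp), in the mm9 coordinates of the deposited lists. They numbered 478 of the 208616 peaks in all 5 lists, with 65 and 16 from AstroEGFR 1 and 3, and 153, 114 and 130 from PT 1, 3 and 4. The rule uses position alone.

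The AstroEGFR libraries (replicates 1 and 3, n = 2) came from C57BL/6 cortical astrocytes of postnatal day 5 with p16/p19 (Ink4a/Arf) knocked out, which carried a retroviral vector for human EGFRvIII, a constitutively active form of the EGF receptor. PT libraries (replicates 1, 3 and 4, n = 3) came from glioma propagating cells grown out of the tumours that such C57BL/6 cells formed after transplantation into CD1 Nude mice, so the Ink4a/Arf loss and the receptor were common to both stages. All cells were below passage 10. The study describes its astrocyte batches as independent cultures, but which batch gave which PT library was not given in the sources used here. The study's methods give a medium with serum for astrocytes and one with growth factors for glioma cells, and stage and medium cannot be told apart. H3K27me3 was profiled by chromatin immunoprecipitation and sequencing, and a peak is a stretch in which the authors' peak caller found more reads than in the local background. Peak lists hold no expression values, so the astrocyte and glioma labels were not checked against marker genes.

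H3K27me3 is laid down by Polycomb repressive complex 2 (PRC2) and is found at silent developmental genes, above all at their CpG-rich start sites, where it can spread over many kilobases. Iroquois proteins are homeodomain transcription factors of the TALE class that pattern the neural tube, heart, lung and retina. Irx3 acts in the patterning of the ventral neural tube, Irx2 in the formation of the cerebellum, Irx4 in ventricular heart muscle, and Irx5 in the retina and heart. The clusters arose by duplication, and their genes are separated by long stretches rich in enhancers and poor in other genes. In RefSeq (GRCm38.p6) the order by rising coordinate is Irx1, Irx2, Irx4 and Irx3, Irx5, Irx6, with 0 other protein-coding genes between the first and the last gene of either cluster, 8 long noncoding RNAs in IrxA and 7 in IrxB, among them Irx3os and Crnde. The low-coordinate ends are therefore called here the Irx1 end and the Irx3 end, and the high-coordinate ends the Irx4 end and the Irx6 end. Positions of single genes on mm9 were not used here, and no peak is assigned to a gene.

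Promoter sequences from RefSeq (250 bases before to 50 bases after the start site) were at hand for 3 of the 6 genes and are shown because CpG density is the sequence feature most tied to PRC2 sites. Capitals mark CpG dinucleotides. Their coordinates are on GRCm38.p6 and cannot be set beside the peaks.
Irx2 (chr13:72628570-72628869, plus strand): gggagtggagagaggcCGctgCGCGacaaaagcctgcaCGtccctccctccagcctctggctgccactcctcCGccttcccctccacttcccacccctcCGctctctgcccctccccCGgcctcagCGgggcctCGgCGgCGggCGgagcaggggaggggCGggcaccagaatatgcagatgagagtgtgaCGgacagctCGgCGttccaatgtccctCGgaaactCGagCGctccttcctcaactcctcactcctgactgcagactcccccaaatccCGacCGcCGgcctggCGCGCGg
Irx4 (chr13:73260247-73260546, plus strand): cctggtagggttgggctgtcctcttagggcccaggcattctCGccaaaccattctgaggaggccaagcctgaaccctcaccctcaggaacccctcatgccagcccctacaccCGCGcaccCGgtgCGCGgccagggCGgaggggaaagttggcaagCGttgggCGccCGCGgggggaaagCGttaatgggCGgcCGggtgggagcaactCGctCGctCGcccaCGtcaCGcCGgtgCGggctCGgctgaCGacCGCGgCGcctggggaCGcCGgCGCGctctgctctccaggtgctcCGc
Irx3 (chr8:91801605-91801904, minus strand): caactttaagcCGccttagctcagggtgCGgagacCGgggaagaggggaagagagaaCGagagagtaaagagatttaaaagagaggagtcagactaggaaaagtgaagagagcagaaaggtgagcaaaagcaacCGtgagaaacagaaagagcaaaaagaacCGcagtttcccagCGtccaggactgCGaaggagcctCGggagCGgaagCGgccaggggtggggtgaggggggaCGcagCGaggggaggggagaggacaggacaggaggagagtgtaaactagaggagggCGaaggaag
The Irx4 promoter held 31 CpG in 300 bases and the Irx2 promoter 25, whereas that of Irx3 held 14. Across the 32841 RefSeq promoters of that length the median was 7, and 10.6% held at least as many as Irx4, 18.4% as many as Irx2 and 36.3% as many as Irx3. All 3 were thus above the median in CpG number, with those of the IrxA cluster denser than the single IrxB promoter.

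The lists behind these values differed widely in length. They held from 3722 (AstroEGFR 3) to 66279 (PT 4) peaks and covered from 0.132% (AstroEGFR 3) to 3.32% (PT 1) of the placed chromosomes. AstroEGFR 3 stood apart as the shortest list, and the lists fell into 2 sets, with 179 to 236 peaks on unplaced sequences in AstroEGFR 1, PT 1 and PT 4 and 0 in AstroEGFR 3 and PT 3. Read numbers were not given, so depth is unknown. A bare stretch is therefore one where nothing reached the caller's threshold, and not one shown to lack the mark. The part that list length and the 2 sets of lists play in the results below was not tested, and values are given within sets and by library where they bear on a result.

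To ask where along the clusters the mark lay, covered length was summed in bins of 20 kb. In IrxA, H3K27me3 peaks gathered at both ends and at a single place between them that several lists shared. Elsewhere the window was bare but for 6 peaks, each found in 1 list. Of the 67 bins, 57 (85.1%) had no peak in any library, against 75.4% of all 131878 bins of the genome. The 40 kb at each end together held 100% of the covered length of AstroEGFR 1 and 82.8% of that of AstroEGFR 3, and 80.7% (PT 3) to 93.2% (PT 1) of that of the glioma lists. The longest stretch without a peak in any library ran from 72769556 to 73381241, 612 kb or 46.0% of the window. In AstroEGFR 1 the bare stretch reached from end to end and measured 1299 kb. The other 4 lists all had a peak about 675 kb from the Irx1 end, and their longest bare stretch was 635 to 656 kb.

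**Figure D1:**
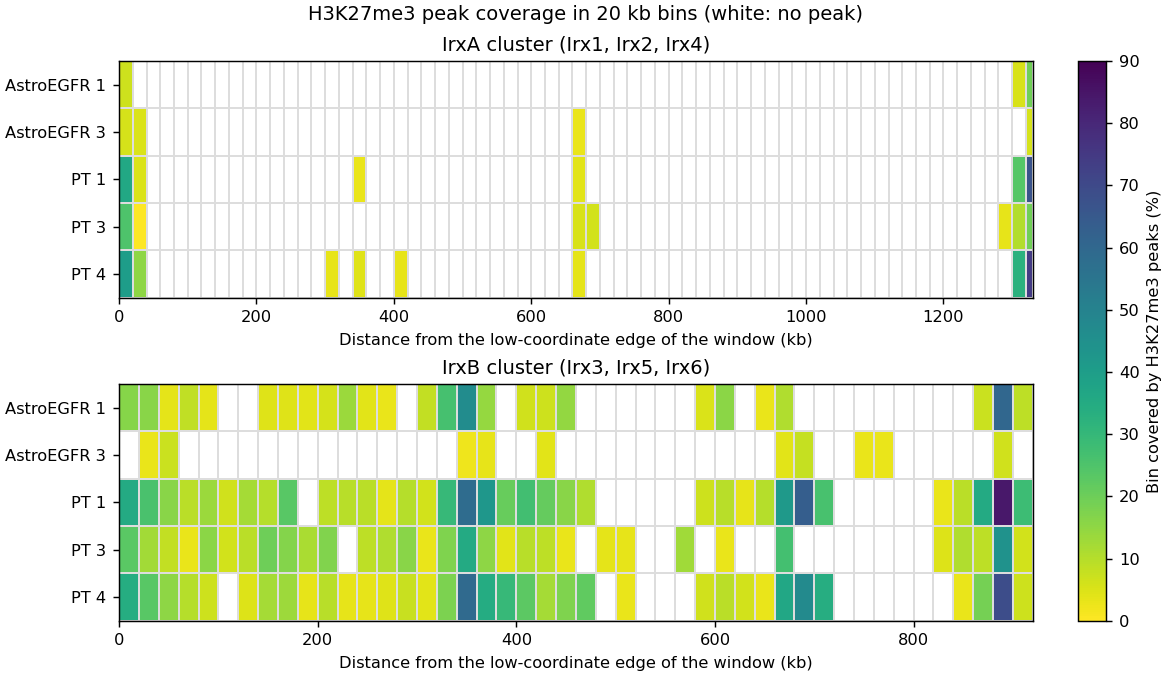
Share of each 20 kb bin covered by H3K27me3 peaks (colour, percent) along the IrxA (upper) and IrxB (lower) windows, plotted against distance from the low-coordinate edge in kb, with 1 row per library; white bins have no peak and the last IrxA bin is 10 kb long. Marking of IrxA sits at both ends, with an isolated bin near 660 kb. IrxB is marked along most of its length in all lists but AstroEGFR 3. Its denser bins in PT begin at 0, 340, 660 and 880 kb, and in PT 1 and PT 4 also at 680 kb.

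IrxB was marked along its length. Of its 46 bins, 26 held a peak in AstroEGFR 1 and 10 in AstroEGFR 3, and the PT lists marked 35, 32 and 35 (replicates 1, 3 and 4). Over the whole genome these libraries marked 10.5%, 2.09%, 16.4%, 13.5% and 17.0% of bins, so the share of marked bins in IrxB (56.5%, 21.7%, 76.1%, 69.6% and 76.1%) was higher in each of the 5. In IrxA the corresponding shares were 4.48%, 5.97%, 8.96%, 10.4% and 11.9%, below the genome in all but AstroEGFR 3. Only 5 IrxB bins (10.9%) had no peak in any library. The 40 kb at each end of IrxB together held 31.6% of the covered length of AstroEGFR 1 and 21.5% of that of AstroEGFR 3. In the glioma lists they held 21.6% (PT 3) to 23.3% (PT 1). The longest stretch free of peaks in every list was 57.2 kb (94826483 to 94883686). Single libraries had longer ones, from 126 kb in PT 1 to 303 kb in AstroEGFR 3. That of AstroEGFR 1 ran from 94986188 to 95186482, and those of the 3 PT lists lay within it, between the inner part of the cluster and the Irx6 end.

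The covered share of the window set the clusters apart in each library. Peaks of AstroEGFR 1 covered 6.99% of IrxB and 0.335% of IrxA, and those of AstroEGFR 3 covered 0.972% and 0.254%. For PT 1 the shares were 16.3% and 1.59%, for PT 3 8.66% and 0.908%, and for PT 4 13.3% and 2.10%. IrxB was the more covered cluster in 5 of 5 libraries, by 3.82 times in AstroEGFR 3 to 20.9 times in AstroEGFR 1. The difference averaged 8.21 ± 5.24 percentage points (SD, n = 5; exact sign-flip permutation test, two-sided, p = 0.0625, the smallest that 5 libraries allow). It was 1.07 points with lists of equal peak number and 0.117 points (exact sign-flip permutation p = 0.75) with lists of equal covered length. In the latter, few peaks of either cluster were left.

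Each window was then set beside the covered share of the whole list of the same library. IrxB exceeded it in every library, 3.70-fold in AstroEGFR 1 and 7.38-fold in AstroEGFR 3, with the PT lists between them (PT 1 at 4.89-fold, PT 3 at 5.83-fold and PT 4 at 4.17-fold). On the log2 scale the excess was 2.33 ± 0.39 (SD, n = 5; exact sign-flip permutation p = 0.0625, two-sided). IrxA fell short of it in 4 libraries, AstroEGFR 1 standing at 0.177-fold and the PT lists at 0.477-, 0.611- and 0.656-fold, but reached 1.93-fold in AstroEGFR 3. The mean log2 value for IrxA was -0.79 ± 1.23 (SD, n = 5; exact sign-flip permutation p = 0.25). The value of AstroEGFR 3 rests on 4 peaks, and the difference between IrxA and the rest of the list was not resolved.

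**Figure D2:**
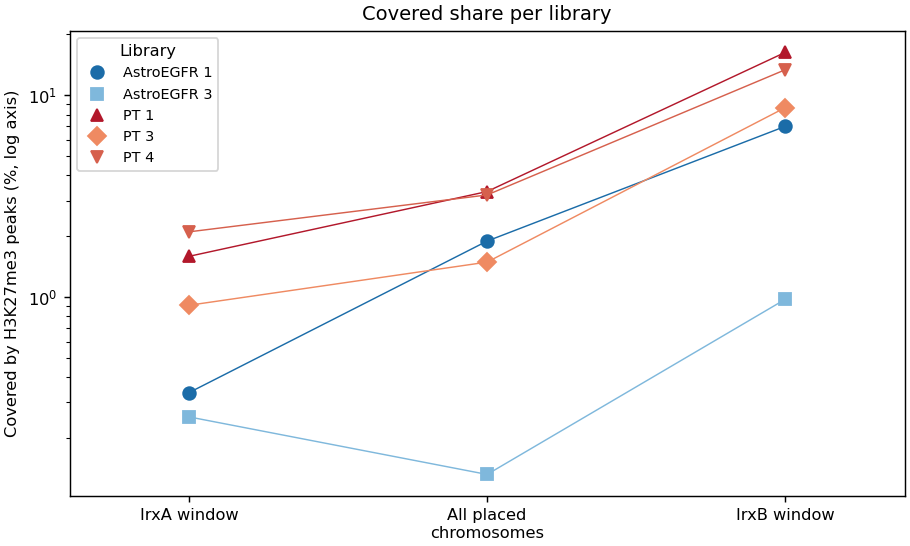
Percent of the IrxA window, of all placed chromosomes and of the IrxB window covered by H3K27me3 peaks, on a log axis; each line joins the 3 values of 1 library. All 5 lines rise from the chromosomes to IrxB, and 4 of the 5 rise from IrxA to the chromosomes, AstroEGFR 3 being the exception.

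The surroundings of the windows differed as well. In the 100 kb beyond the Irx1 end of IrxA no library had a peak, and beyond the Irx4 end PT 1 covered 1.92% and PT 4 2.98% while the other 3 covered 0%. In the 100 kb beyond the Irx6 end of IrxB peaks covered 18345 bp in AstroEGFR 1 and 1503 bp in AstroEGFR 3, and 21312, 30012 and 13902 bp in PT 1, PT 3 and PT 4, a larger share than in the window itself in all 5. Beyond the Irx3 end they covered 2200 to 9655 bp. In PT 1 a peak crossed an edge of IrxB, the only one to do so in either window.

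The stages were compared next, since the study asked whether the mark is redistributed between AstroEGFR and PT. PT lists marked more of both clusters than AstroEGFR lists, and the values of the groups did not overlap. Peaks of AstroEGFR 1 and 3 covered 64342 and 8947 bp of IrxB, and those of PT 1, PT 3 and PT 4 covered 149630, 79682 and 122752 bp. PT 3, the lowest PT value, was 1.24 times that of AstroEGFR 1. The group means were 117355 ± 35285 bp (SD, n = 3) and 36645 ± 39170 bp (SD, n = 2), a difference of 80710 bp reached by 2 of the 10 ways to assign the libraries (exact permutation test, two-sided, p = 0.2). The smallest p this design allows is 0.1, and where libraries are not from separate cultures such a p measures only their technical spread. Without AstroEGFR 3 the difference was 53013 bp.

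In IrxA the lists of AstroEGFR 1 and 3 covered 4455 and 3382 bp, while PT 1, PT 3 and PT 4 reached 21102, 12077 and 27908 bp. The AstroEGFR values were close to each other and the PT values 2.71 to 8.25 times higher, pair by pair. The means were 20362 ± 7941 bp (SD, n = 3) and 3919 ± 759 bp (SD, n = 2), a difference of 16444 bp (exact permutation p = 0.2, two-sided). The number of peaks gave 5 and 4 in AstroEGFR and 14, 15 and 13 in PT for IrxA, and 60 and 12 against 139, 99 and 117 for IrxB. Both differences, of 9.5 and 82.3 peaks, were the largest the 10 assignments gave (exact permutation p = 0.1, the smallest possible). The whole lists separated in the same way, with 34021 and 3722 peaks in AstroEGFR and 64504, 40090 and 66279 in PT. Peak numbers were not scaled by list length. Within the set with peaks on unplaced sequences, PT 1 and PT 4 covered 4.74 and 6.26 times the IrxA length of AstroEGFR 1, and 2.33 and 1.91 times its IrxB length. Within the other set PT 3 covered 3.57 times the IrxA and 8.91 times the IrxB length of AstroEGFR 3.

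In covered share the lists as a whole differed in the same direction, apart from PT 3 against AstroEGFR 1 (0.787 times). The whole-list share of PT 1 was 1.76 times, and that of PT 4 1.69 times, that of AstroEGFR 1, against 2.33 and 1.91 times in IrxB. Against AstroEGFR 3 the whole-list ratios were 25.2, 11.3 and 24.3 for PT 1, PT 3 and PT 4, above those in IrxB (16.7, 8.91 and 13.7). Divided by the whole-list share, IrxB stood at 1.32 (PT 1), 1.57 (PT 3) and 1.13 (PT 4) times the level of AstroEGFR 1, but at 0.663, 0.790 and 0.566 times the level of AstroEGFR 3. The mean difference between stages in IrxB was then -0.087 on the log2 scale (exact permutation p = 0.9, two-sided, n = 3 and 2). In IrxA the scaled PT values were 2.69, 3.44 and 3.70 times that of AstroEGFR 1 and 0.248, 0.317 and 0.340 times that of AstroEGFR 3, with a mean difference of -0.021 (exact permutation p = 1.0). The direction rested on the AstroEGFR library chosen: without AstroEGFR 3 the scaled differences were 1.70 (IrxA) and 0.41 (IrxB), and without AstroEGFR 1 they were -1.74 and -0.58. A change of either cluster beyond that of the whole lists was not resolved.

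Bins were then sorted by the libraries that marked them. In IrxB, 7 of the 46 bins (15.2%) were marked in all 5 libraries, against 1.36% of all bins, and 26 (56.5%) in all 3 PT, against 7.97%. The same 7 were the only ones marked in both AstroEGFR libraries (1.53% of all bins). Acquired bins, with a peak in every PT list and none in AstroEGFR, numbered 4 (8.70%), against 2.12% of all bins. They began at 94430001, 94590001, 94690001 and 95150001. Among bins marked in all PT, however, the acquired share was 15.4% in IrxB and 26.6% genome-wide. Bins marked in both AstroEGFR libraries and in no PT numbered 0 in either cluster, against 0.0091% of all bins. AstroEGFR 1 decided the acquired count: without it the number was 19 bins, and without PT 3 it was 7. The count marked throughout was 22 without AstroEGFR 3.

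In a further 12 IrxB bins, some mark was present in AstroEGFR but each PT library covered more than either AstroEGFR library, which with the acquired bins made 16 of 46 (34.8%). Genome-wide this held for 3.62% of all bins. Among bins marked in all PT it held for 61.5% in IrxB and 45.4% genome-wide. The reverse, more covered in both AstroEGFR libraries than in each PT, held for 0 bins of either cluster and for 0.022% of all bins.

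In IrxA, 2 of the 67 bins (2.99%) were marked in all 5 libraries, the first and the last of the window. The first held 1386 and 1177 bp in AstroEGFR 1 and 3, and 7191, 5057 and 8017 bp in PT 1, PT 3 and PT 4, so that all PT values lay above both AstroEGFR values. The last, which is only 10 kb long, held 1963, 588, 6695, 1934 and 7427 bp in the same order, and there PT 3 lay just under AstroEGFR 1. Acquired bins numbered 0, and each PT exceeded both AstroEGFR libraries in 3 bins (4.48%), a share near the 3.62% of all bins. These were the first bin, the bin from 72745001 and the bin from 73385001. Without AstroEGFR 1, 4 bins were marked in all other libraries. Each of the 5 IrxA bins marked in all PT also held a peak in 1 or both AstroEGFR libraries. Genome-wide, 26.6% of bins marked in all PT held none in AstroEGFR. In 1 of the 5, the bin from 72105001, PT 3 had only 1 bp of peak.

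Overlapping and touching peaks of the 5 lists were merged into regions to describe single sites. IrxA held 17 regions and IrxB 210, and 9 and 106 of them were marked in 1 library only (52.9% and 50.5%, against 57.3% of all 99646 regions). Regions marked in all 5 libraries numbered 2 in IrxA and 3 in IrxB (11.8% and 1.43%, against 1.31% of all regions). Those marked in all PT and in no AstroEGFR library numbered 0 in IrxA and 16 in IrxB (7.62%, against 3.76% of all regions). Of the regions marked in all PT these 16 made 53.3% in IrxB, against 34.1% of all regions marked in all PT. The share was thus above the background for regions and below it for 20 kb bins. Regions in both AstroEGFR libraries and no PT numbered 0, against 0.0231% of all regions.

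The widest of the 5 shared regions lay at the Irx6 end of IrxB, chr8:95193013-95204999 (11987 bp). Peaks covered 10301 bp of it in AstroEGFR 1 and 1305 bp in AstroEGFR 3, and 11987, 8112 and 11522 bp in PT 1, PT 3 and PT 4. AstroEGFR 1 lay inside the range of PT there. Ranked by score within its list, the best peak there took place 2479 of 34021 in AstroEGFR 1 and 1503 of 3722 in AstroEGFR 3. In PT it took place 67 of 64504 (PT 1), 541 of 40090 (PT 3) and 1156 of 66279 (PT 4). Tied scores share the best place, and the PT 1 peak (score 3100) was tied. With ties averaged its percentile was 99.0, against 98.7 in PT 3 and 98.3 in PT 4. Places and percentiles depend on list length, and no stage difference is read from them here or below. The highest-scoring IrxB peak of each PT library fell in this region, whereas that of AstroEGFR 1 lay at 94649039-94652715 (score 757) and that of AstroEGFR 3 at 94357971-94359147 (score 142).

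The second shared IrxB region, chr8:94981237-94987684, was covered further in PT. It held 2110 bp of peaks in AstroEGFR 1 and 807 bp in AstroEGFR 3, and 6077, 3514 and 6373 bp in PT 1, PT 3 and PT 4. In covered length each PT library exceeded both AstroEGFR libraries. By score the best peak took place 18455 in AstroEGFR 1 and 1638 in AstroEGFR 3. It took places 1595, 2345 and 1253 in PT 1, PT 3 and PT 4. Within their lists these were percentiles 45.8 and 56.0 in AstroEGFR and 97.5, 94.2 and 98.1 in PT. Directly beyond the region, the bins from 94990001 and 95010001 were covered to 12717 and 5212 bp in PT 1 and 9451 and 6771 bp in PT 4. They were covered to 0 bp in PT 3 and in AstroEGFR 1. AstroEGFR 3 had 1556 bp in the first of them. This stretch was therefore marked in PT 1 and PT 4, which belong to the same set of lists, and not in PT 3. The third shared region, chr8:94661367-94663009, was narrow, with 490 to 1340 bp of peaks per library. Its best places by score lay between 3490 (AstroEGFR 3) and 31938 (AstroEGFR 1). As percentiles of the list these peaks stood at 6.10 and 6.22 in AstroEGFR and 53.1, 83.2 and 66.7 in PT.

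**Figure D3:**
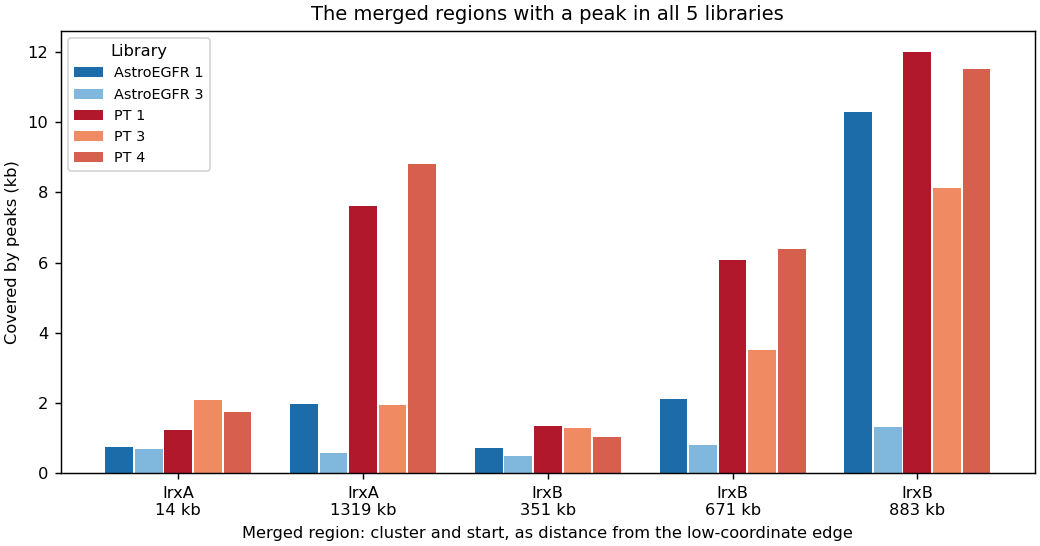
Length covered by H3K27me3 peaks (kb) in each of the 5 merged regions with a peak in all libraries, named by cluster and by the distance of the region's start from the low-coordinate edge; each bar is 1 library. At 671 kb in IrxB all 3 PT bars exceed both AstroEGFR bars, whereas at 883 kb AstroEGFR 1 reaches 10301 bp, within the PT range.

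In IrxA the shared regions lay at the ends. At the Irx4 end, chr13:73403615-73412600 held 1963 bp in AstroEGFR 1 and 588 bp in AstroEGFR 3, whereas PT 1 and PT 4 held 7606 and 8813 bp but PT 3 only 1934 bp. PT 3 thus grouped with AstroEGFR 1 here. In PT 4 the region held a single peak of 8813 bp with a score of 3100, and in PT 1 a peak of 4952 bp with a score of 2388. By score the best peak took place 12750 in AstroEGFR 1 and 3353 in AstroEGFR 3, and places 1712, 15873 and 48 in the PT lists. Its percentiles were 62.5 and 9.91 in AstroEGFR and 97.3, 60.4 and 99.1 in PT, the PT 4 score being tied. At the Irx1 end, chr13:72098925-72101013 held 750 and 705 bp in AstroEGFR and 1235, 2089 and 1745 bp in PT 1, PT 3 and PT 4. It contained the highest-scoring IrxA peak of PT 3 (2089 bp, score 637, place 1705). The adjoining region, 72101251 to 72107520, was marked in AstroEGFR 3 (1506 bp) and in PT 1, PT 3 and PT 4 (4769, 2021 and 5787 bp) but not in AstroEGFR 1.

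The isolated site in the middle of IrxA, chr13:72760175-72761874, held a peak in AstroEGFR 3 (583 bp) and in all PT (824, 1087 and 723 bp). In AstroEGFR 1 it had none. It was the one marked site of the cluster outside the end 40 kb that more than 1 library shared. The remaining inner peaks of IrxA, between 72398914 and 72489828 in PT 1 or PT 4 and between 72765385 and 72769555 in PT 3, each belonged to a single list.

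The 16 acquired regions of IrxB were narrow, with a median width of 1117 bp (673 to 3113 bp). Of these, 9 were within 5 kb of an AstroEGFR peak, and the distance ran from 200 bp to 19524 bp. The share within 5 kb was not computed for the acquired regions of the whole genome. IrxB held 60 peaks of AstroEGFR 1 and 12 of AstroEGFR 3, so closeness to a peak is not read as a trait of the cluster. The 3 widest lay at 95173989-95177101, 94322784-94324896 and 94359348-94361132. The first held 2804 bp in PT 1 but 565 and 584 bp in PT 3 and PT 4, and lay 9381 bp from the nearest AstroEGFR peak. The second, near the Irx3 end, held 985, 1072 and 1038 bp in PT 1, PT 3 and PT 4, alike in all PT, and lay 971 bp from the nearest AstroEGFR peak. The third held 1047, 611 and 1301 bp and lay 200 bp from one. In the opposite direction, 15 IrxB regions (7.14%) had no peak in PT, near the 6.98% of all regions, and 13 of them were found in AstroEGFR 1 only and 2 in AstroEGFR 3 only.

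By score and width most IrxB peaks lay in the lower part of their own list. The share that scored below the list median was 65.0% in AstroEGFR 1 (39 of 60 peaks) and 61.2%, 64.6% and 60.7% in the PT lists. In AstroEGFR 3 it was 58.3%, which is only 7 of 12 peaks. The median width of IrxB peaks was 914 bp in AstroEGFR 1, 687 bp in AstroEGFR 3 and 710, 637 and 699 bp in PT, below the list median (1031, 764, 808, 684 and 792 bp) in all 5. The best IrxB peak took place 1825 by score in AstroEGFR 1 and 761 in AstroEGFR 3, and places 67, 541 and 1156 in the PT lists. The best IrxA peak took place 12750 in AstroEGFR 1 and 570 in AstroEGFR 3, and places 1712, 1705 and 48 in the PT lists. Places of AstroEGFR 3 are out of only 3722 peaks, and places 67 and 48 belong to tied scores. As percentiles of the list, the best IrxB peak stood at 94.6 and 79.6 in AstroEGFR and 99.0, 98.7 and 98.3 in PT. The best IrxA peak stood at 62.5 and 84.7 in AstroEGFR and 97.3, 95.7 and 99.1 in PT. No stage difference is read from these.

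**Figure D4:**
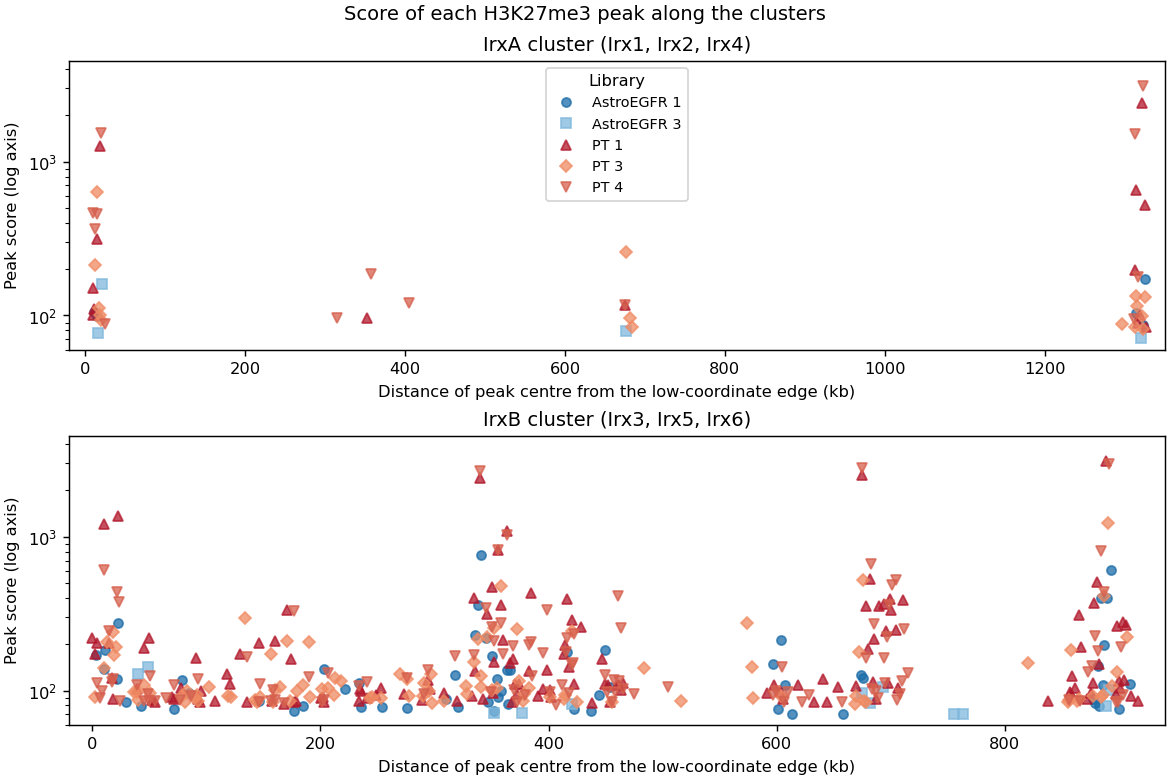
Score of every member peak (log axis) against the distance of its centre from the low-coordinate edge (kb), for IrxA (upper) and IrxB (lower); colour and symbol give the library. The scores depend on the depth of each library, which is unknown; those above 1000 are from PT lists and lie at both ends of IrxA and near 10 to 23, 340 to 363, 675 and 888 kb in IrxB, over a field of low scores along IrxB.

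With equal list lengths, the strongest 3722 peaks of each list, the clusters kept few peaks. AstroEGFR 1 kept 0 in IrxA and 2 in IrxB, PT 1 kept 2 and 4, PT 3 1 and 4, and PT 4 3 and 3, while AstroEGFR 3, whose whole list this is, kept 4 and 12. The covered length of IrxB was then 6985 bp in AstroEGFR 1 and 8947 bp in AstroEGFR 3. In PT it was 27543, 10197 and 18486 bp, so the groups still did not overlap. Lists of equal peak number still differ in covered length. Divided by the whole-list share, the IrxB stage difference was -0.13 on the log2 scale (exact permutation p = 0.8, two-sided). The covered length of IrxA was 0 and 3382 bp in AstroEGFR and 9721, 2089 and 18154 bp in PT, and PT 3 fell below AstroEGFR 3. When the lists were instead limited to the total covered length of the shortest, strongest peaks first, the mean difference in IrxB between PT and AstroEGFR turned to -2846.5 bp (exact permutation p = 0.7, two-sided, n = 3 and 2). This value rests on 13 peaks, since only AstroEGFR 3 (12 peaks, 8947 bp) and PT 3 (1 peak, 4881 bp) then kept any in IrxB. The direction of the stage difference in IrxB thus rested on how the lists were made equal.

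Libraries also differed in how far they marked the same bases. The Jaccard index, the bases in both lists divided by the bases in either, was highest for PT 1 with PT 4 in both clusters, 0.644 in IrxA and 0.436 in IrxB, against 0.506 over the genome. PT 3 shared 0.194 with PT 1 and 0.196 with PT 4 in IrxB, less than AstroEGFR 1 did (0.253 and 0.260). The order was the same over the genome, with 0.183 and 0.183 for PT 3 and 0.325 and 0.320 for AstroEGFR 1. In IrxA the order was the other way, with 0.277 and 0.265 for PT 3 and 0.210 and 0.151 for AstroEGFR 1. The AstroEGFR libraries shared 15 bp in IrxA (0.337% of the marked bases of AstroEGFR 1 and 0.444% of those of AstroEGFR 3) and 1450 bp in IrxB (2.25% and 16.2%). Of the marked bases of AstroEGFR 1 in IrxA, 99.7% were also marked in PT 1 and 95.2% in PT 4, but only 48.3% in PT 3. For AstroEGFR 3 the shares were 78.4%, 83.1% and 52.1% in the same order. These IrxA shares rest on 5 peaks of AstroEGFR 1 and 4 of AstroEGFR 3. PT 1 and PT 4 belong to the same set of lists as AstroEGFR 1. In IrxB the shares ran from 28.3% (PT 3) to 67.1% (PT 1) for AstroEGFR 1. For AstroEGFR 3 they ran from 46.9% (PT 3) to 60.2% (PT 4). Over the genome the index of the AstroEGFR libraries with each other was also low, 0.033, against 0.0019 in IrxA and 0.020 in IrxB, so these lists shared few bases anywhere.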

How the data were processed

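H3K27me3 peak lists of 5 libraries were used; 3 input libraries were not analysed here. Per the labels and the submitters' processing notes, reads were aligned with Bowtie 0.12.9 to mm9 and peaks called with MACS 1.4.1, and the authors deposited 1 list per library. The deposited lists give chromosome, start, end, name and the MACS score of each peak, whose scale is not stated there. Scores grow with depth and are not comparable in size between lists, so places and percentiles within a list are given. Only the figure of scores and the alternative with a minimum of 100 put lists on 1 scale. Peaks with tied scores share the best place, whereas percentiles average the ties. The lowest score was 70.05 to 75.69, by list. The input, the filters and the number of reads are not given in the sources used here, so depth is unknown and no counting interval can be given. Deeper or better enriched libraries pass the threshold over more and wider stretches.

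Covered length is the sum of peak bases inside a window, and its whole-list counterpart uses placed chromosomes up to the last peak (2637 Mb). Bins of 20 kb start at the window edge, or at the chromosome start for the whole genome, and at least 1 bp of peak marks a bin. Positions are 1-based. The library was the unit: stages were compared by an exact permutation test over the 10 splits, and the windows with the whole list or with each other by an exact sign-flip test over 5 libraries. Interval functions were tested on simulated lists. Python 3.11.15, numpy 2.4.6, pandas 2.3.3 and matplotlib 3.10.9 were used. The windows, tests and naming rule were chosen with earlier results of these data known; the named sites are the regions marked in all 5 lists, the 3 widest acquired ones, the widest and highest-scoring peaks and the longest bare stretches. Sites named beside these, the end 40 kb and the flanks were chosen after their values were seen. Peaks at single promoters, planned as well, were not examined because positions on mm9 were not used here. Alternatives were score and length limits on the lists, bin size, the minimum for a marked bin, wider windows, sets of lists, omitted libraries and a replicate block.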

Additional observations from a re-analysis of the deposited data

How the results depend on the processing

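Of 184 values recomputed under the alternatives, 135 kept their direction or stayed within 1.5 times, 35 counts moved further and 14 differences reversed. No stage difference could pass 0.05 under any of them, so keeping a side of the threshold says nothing on stability. The excess of IrxB over the whole list kept its sign wherever it could be computed, as did the stage difference in covered length of IrxA, which at equal covered length rested on 1 PT 4 peak against AstroEGFR 3. IrxB minus IrxA (8.21 percentage points) fell to 1.07 at equal number of peaks and to 0.117 at equal covered length (exact sign-flip permutation p = 0.75). At equal covered length PT 4 had more in IrxA, and AstroEGFR 1 and PT 1 had 0 in both. Where a shortened list left a cluster at 0 bp, the scaled difference could not be computed.

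The scaled stage difference (log2, -0.021 in IrxA and -0.087 in IrxB) reversed to 0.35 and 0.15 with scores of at least 100, 1.02 and 0.017 in the upper 50% of each list, and 1.66 and 0.29 among lists with peaks on unplaced sequences; in IrxA to 0.069 with windows extended by 100 kb. Omitting each library gave -1.74 to 1.70 in IrxA and -0.58 to 0.41 in IrxB. The IrxA value against the whole list became 0.12 among lists without unplaced peaks. With every list limited to the covered length of the shortest, the IrxB stage difference was -2846.5 bp.

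Acquired IrxA bins (0 with all peaks) were 1 with scores of at least 100, in the upper 50% and with 25% of a bin covered, and 3 within either set of lists. Acquired IrxB bins (4) were 0 at equal number or equal length of lists and in 40 kb bins, 11 in 10 kb bins, 1 with 25% of a bin covered, 8 within lists with unplaced peaks and 25 within those without, where 3 bins were lost. Omissions gave 0 to 2 in IrxA, and 4 to 19 acquired and 0 to 2 lost in IrxB; the extremes came without AstroEGFR 1 or, in IrxA, AstroEGFR 3. Bins marked throughout numbered 2 in IrxA and 7 in IrxB. They were 1 and 2 with scores of at least 100, 0 and 2 in the upper 50% and at equal number, 0 and 0 at equal length and with 25% covered, and 1 and 1 with 1000 bp required. Within lists with unplaced peaks 25 IrxB bins were so marked, and within those without 4 IrxA bins. Omissions gave 2 to 4 and 7 to 22, the latter without AstroEGFR 3. Fewer libraries must then share a bin.

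Numbers 1 and 3 occur in both stages. Over 32449 bins, deviations from the stage mean correlated at 0.242 between the libraries numbered 1 and 0.291 between those numbered 3. PT 4, with no AstroEGFR library of its number, reached 0.161 with AstroEGFR 1. Deviations of 2 AstroEGFR libraries from their mean mirror each other, so each PT library has equal values of opposite sign with them. There were 2 pairs, and the numbers coincide with the sets of lists, so these values cannot decide on pairing. Whether a number marks a batch was not given in the sources used here. With the replicate block the stage difference was 12671 bp in IrxA and 78011.5 bp in IrxB, and 0.031 for scaled IrxB, a reversal; these equal the values without PT 4.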
